A study of Mus musculus with 22 samples.

Results

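*Magel2*, *Mkrn3* and *Peg12* are the paternally expressed protein-coding genes of the mouse Prader-Willi syndrome (PWS) locus that lie distal to the imprinting centre beyond *Ndn*. They were taken by gene name from both deposited count tables, where they are 3 of 55406 shared genes, and all 3 passed the filter on low counts in both mouse models. Their levels were compared by genotype in whole brains of newborn pups (postnatal day 0) by sequencing of polyadenylated RNA. PWS-IC pups were heterozygous, with the imprinting centre deleted on the paternal chromosome, and PWS-cr pups were heterozygous, with a paternal deletion of the critical interval that holds the *Snord116* copies and most of *Ipw*. Each model was set against wild-type littermates of its own colony, and the control pups carried neither deletion. Both sexes were used in the PWS-cr series, whereas all pups labelled PWS-IC were female. The libraries were unstranded and came from whole brain, so fewer cells of a type and less RNA per cell cannot be told apart.

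Genes of this locus are imprinted. The imprinting centre lies at the start of *Snrpn* and keeps a group of genes active on the paternal chromosome, while the maternal copies are silent. *Magel2* encodes a member of the MAGE family that works with the ubiquitin ligase Trim27 and the deubiquitinase Usp7 on endosomes, where retromer and the WASH complex return membrane proteins to the cell surface, and it is best known from the hypothalamus. *Mkrn3* encodes a makorin RING-finger ubiquitin ligase, and loss of the human gene causes early puberty. *Peg12*, also named *Frat3*, encodes a protein of the FRAT family, which binds the kinase GSK-3 in Wnt signalling.

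The 3 genes are single-exon genes within 87501 bases of chromosome 7 (mm10, GENCODE vM21). *Magel2* (ENSMUSG00000056972) lies on the plus strand at chr7:62377010-62381640 with 3852 coding bases, *Mkrn3* (ENSMUSG00000070527) on the minus strand at chr7:62417593-62420139 with 1632 coding bases, and *Peg12* (ENSMUSG00000070526) on the minus strand at chr7:62461871-62464510 with 849 coding bases. Their near ends are 2236791, 2277374 and 2321652 bases from the annotated start of *Snrpn*. The lincRNA *Gm32061* runs over *Magel2* and *Mkrn3* on the minus strand. It held 139 counts over 9 wild-type libraries, against 22356 for *Magel2* and 9333 for *Mkrn3*. Reads in any stretch it shares with them cannot be told apart by strand in unstranded libraries, so its part in their counts was not tested. The log2 fold change of *Gm32061* itself in PWS-IC pups was −3.76 (SE 0.601; edgeR, adjusted p = 0.0314). No annotated gene overlapped *Peg12*.

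The promoters of the 3 genes are shown because the genes moved together in PWS-IC pups and because CpG sites are the bases that imprinted promoters carry methylation on. Each run is 250 bases before to 50 bases after the start of transcription as RefSeq gives it for GRCm38.p6, 5′ to 3′ on the strand of the gene, with CpG sites in capitals. The windows are chr7:62376729-62377028 on the plus strand for *Magel2*, chr7:62420104-62420403 on the minus strand for *Mkrn3* and chr7:62464461-62464760 on the minus strand for *Peg12*.
Magel2: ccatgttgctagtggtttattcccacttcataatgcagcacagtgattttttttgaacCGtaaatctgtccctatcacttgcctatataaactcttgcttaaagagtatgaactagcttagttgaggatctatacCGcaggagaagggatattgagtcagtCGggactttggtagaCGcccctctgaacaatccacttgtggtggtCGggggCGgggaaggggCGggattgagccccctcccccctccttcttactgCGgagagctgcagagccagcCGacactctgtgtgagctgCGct
Mkrn3: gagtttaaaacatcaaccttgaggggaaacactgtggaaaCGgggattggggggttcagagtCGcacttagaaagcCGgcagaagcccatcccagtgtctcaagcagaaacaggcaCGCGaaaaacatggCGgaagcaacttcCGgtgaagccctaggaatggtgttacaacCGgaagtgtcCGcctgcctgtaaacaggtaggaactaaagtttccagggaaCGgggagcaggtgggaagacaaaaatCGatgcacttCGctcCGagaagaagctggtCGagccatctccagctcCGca
Peg12: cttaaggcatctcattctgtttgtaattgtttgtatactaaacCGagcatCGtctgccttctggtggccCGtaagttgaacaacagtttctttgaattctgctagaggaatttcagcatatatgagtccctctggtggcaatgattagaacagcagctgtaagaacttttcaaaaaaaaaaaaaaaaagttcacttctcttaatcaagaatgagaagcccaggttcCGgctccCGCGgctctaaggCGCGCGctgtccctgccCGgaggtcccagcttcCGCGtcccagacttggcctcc

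The windows held 10 CpG sites in *Magel2*, 15 in *Mkrn3* and 12 in *Peg12*, against a median of 7 over 32851 mouse promoters of the same length. As many sites or more were found in 43.5%, 34.6% and 39.6% of all promoters. Letters of 4 motifs were searched on both strands after the sequences had been seen. The GC box GGGCGGG occurred 2 times in *Magel2* and in 25.6% of all promoters. The TATA box TATAAA occurred 1 time in *Magel2* and in 13.6% of all promoters, and it shares no letters with the GC box, so that matches cannot overlap. The ETS core CCGGAAGT occurred 2 times in *Mkrn3* and in 3.89% of all promoters. The NRF1 core GCATGCGC occurred in 0 of the 3 windows and in 2.71% of all promoters. None of the 4 motifs was found in the *Peg12* window. Methylation was not measured, so the sites are given as sequence only.

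Of 22 labelled libraries, 20 had a column in the count tables. These were 4 PWS-IC and 5 wild-type libraries from 2 litters, and 6 PWS-cr and 5 wild-type libraries from 4 litters, of which 1 litter had a count column for its PWS-cr pup only and gives no genotype difference of its own. Total counts ranged from 45798407 to 62103143 per library. Libraries are named as labelled, for example 1_3_IC. Sex-linked RNA went against the label in 2 libraries of the PWS-IC series. The library labelled 1_3_IC, a PWS-IC female, had 64 counts of *Xist*, which marks an inactive X chromosome, and 7568 counts of 4 Y-linked genes. The library labelled 1_7_IC, a wild-type male, had 124574 counts of *Xist* and 18 of the Y-linked genes. PWS-IC results are therefore given for the 7 libraries whose sex-linked counts match their label (3 PWS-IC and 4 wild-type), with the values for all 9 as labelled beside them. This check used no gene of the PWS locus. The deleted regions were checked through their own transcripts: *Snrpn* averaged 6.56 ± 1.64 CPM (counts scaled to a common library size) in PWS-IC pups (SD, n = 3) and 259.0 ± 20.3 CPM in wild-type pups (n = 4), and *Snhg14*, the host transcript of the critical interval, averaged 45.8 ± 2.39 CPM in PWS-cr pups (n = 6) and 146.0 ± 10.2 CPM in wild-type pups (n = 5).

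In wild-type brains the group means stood in the order *Magel2*, *Mkrn3* and *Peg12*, by TPM, the deposited unit that scales transcripts by gene length and library. In the PWS-IC series the means of *Magel2* and *Mkrn3* were close, and the wild-type library 1_1_IC had the reverse order (21.95 and 33.6 TPM). In wild-type pups of the PWS-IC series *Magel2* averaged 30.8 ± 6.03 TPM, *Mkrn3* 30.4 ± 2.25 TPM and *Peg12* 4.66 ± 0.360 TPM (SD, n = 4). In wild-type pups of the PWS-cr series *Magel2* averaged 46.4 ± 9.17 TPM, *Mkrn3* 28.8 ± 2.59 TPM and *Peg12* 5.335 ± 0.265 TPM (n = 5). *Magel2* and *Mkrn3* overlapped between 21.95 and 35.5 TPM (*Magel2*) and 28.4 and 33.6 TPM (*Mkrn3*) in the PWS-IC series and did not overlap in the PWS-cr series, where *Magel2* began at 37.6 TPM and *Mkrn3* ended at 32.6 TPM. *Peg12* was the lowest in all wild-type libraries of both series that passed the sex check. *Ndn*, their neighbour, averaged 520 ± 27.4 TPM in the PWS-IC series and 305 ± 59.0 TPM in the PWS-cr series.

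All 3 genes were far lower in brains of PWS-IC pups, which lack the paternal imprinting centre. Mean levels in PWS-IC pups were 23.1-fold lower for *Magel2*, 23.3-fold lower for *Mkrn3* and 16.1-fold lower for *Peg12*, and each gene kept a small number of counts in every PWS-IC library. No PWS-IC library that passed the sex check overlapped a wild-type library for any of the 3 genes. Levels within a gene are given as CPM, scaled by the trimmed mean of M-values (TMM) over all 20 libraries.

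*Magel2* had 1.51, 1.64 and 1.73 CPM in the PWS-IC libraries 1_10_IC, 4_4_IC and 4_5_IC, against 27.6, 40.9, 42.5 and 39.5 CPM in the wild-type libraries 1_1_IC, 1_5_IC, 4_3_IC and 4_6_IC. The mutants sat close together, and the wild-type female 1_1_IC was the lowest of the controls. The log2 fold change was −4.57 (SE 0.154, 95% interval −4.91 to −4.23; edgeR, adjusted p = 1.96e-08).

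*Mkrn3* had 0.957, 0.818 and 0.857 CPM in 1_10_IC, 4_4_IC and 4_5_IC, against 23.2, 19.3, 19.4 and 19.9 CPM in 1_1_IC, 1_5_IC, 4_3_IC and 4_6_IC. Here the wild-type female 1_1_IC was the highest of the controls. The log2 fold change was −4.52 (SE 0.120, 95% interval −4.78 to −4.25; edgeR, adjusted p = 3.53e-09).

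*Peg12* had 0.153, 0.247 and 0.206 CPM in 1_10_IC, 4_4_IC and 4_5_IC, against 3.14, 3.65, 3.17 and 3.05 CPM in 1_1_IC, 1_5_IC, 4_3_IC and 4_6_IC. These PWS-IC values rest on 8, 13 and 13 counts, few enough for counting error to be large, whereas the 4 controls held 155 to 195 counts. The log2 fold change was −3.98 (SE 0.211, 95% interval −4.45 to −3.52; edgeR, adjusted p = 1.28e-06).

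Calls were made over all genes tested at a threshold of 0.05 on the Benjamini-Hochberg adjusted p. All 3 genes were called lower, against 0.16% of the 22523 genes tested in PWS-IC pups (36 genes called lower, and 0.266% called in either direction), and 5.08% of genes had PWS-IC libraries wholly below the wild-type ones. The within-litter differences were −4.47 in litter 1 and −4.61 in litter 4 for *Magel2*, −4.47 and −4.55 for *Mkrn3*, and −4.47 and −3.78 for *Peg12*, on the log2 scale. With all 9 libraries as labelled none of the 3 was called. The log2 fold changes were then −2.32 (SE 1.13, adjusted p = 0.553) for *Magel2*, −1.49 (SE 1.33, adjusted p = 0.673) for *Mkrn3* and −1.39 (SE 1.07, adjusted p = 0.631) for *Peg12* in edgeR, where 0 of 22940 genes were called and 1919 had an unadjusted p under 0.05.

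The 3 PWS-IC pups that passed the check were female, and 1 of their 4 controls was, 1_1_IC. Without 1_1_IC sex and genotype could not be told apart, so the values with sex added rest on that library. It was the lowest control for *Magel2* and the highest for *Mkrn3*. With sex added to the model the log2 fold changes were −4.11 (SE 0.130) for *Magel2*, −4.70 (SE 0.154) for *Mkrn3* and −3.88 (SE 0.303) for *Peg12*, and all 3 stayed called (edgeR, highest adjusted p = 0.000169). In the PWS-cr series, where both sexes occurred in both genotypes, the male minus female difference was −0.15 (SE 0.117) for *Magel2*, −0.05 (SE 0.0648) for *Mkrn3* and −0.05 (SE 0.0861) for *Peg12*. None of these was called, at an adjusted p of 1 in edgeR, against 0.0316% of genes called for sex.

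**Figure D1:**
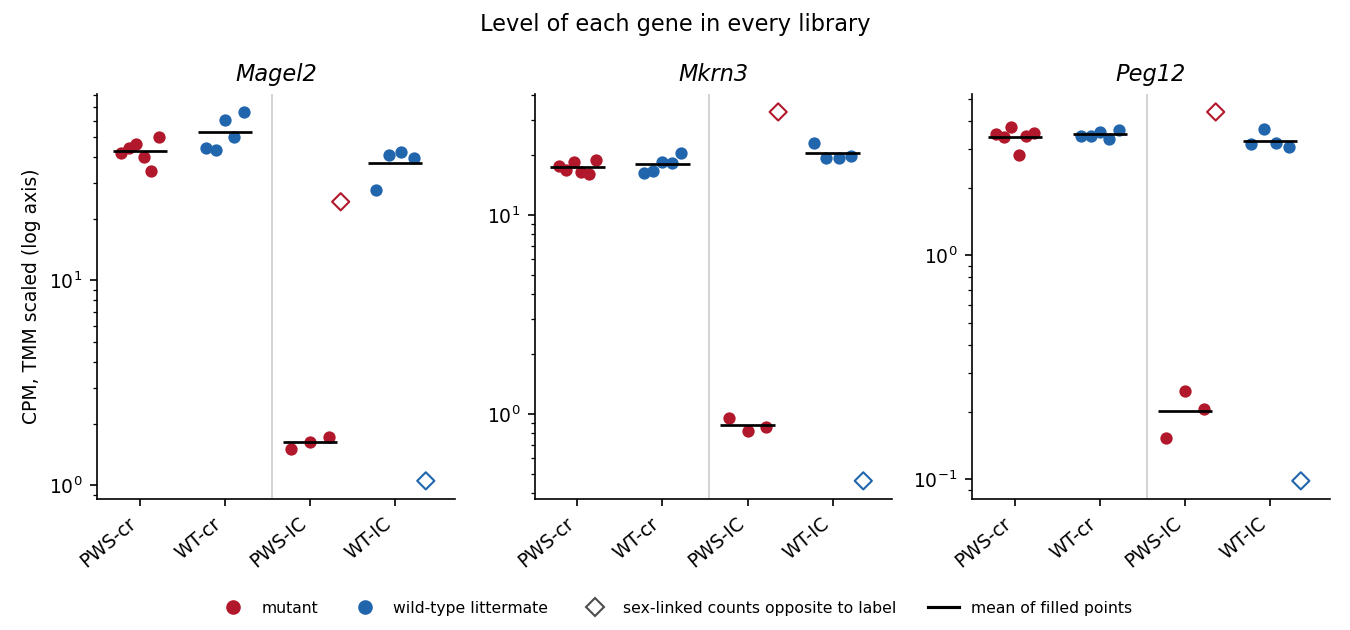
Level of *Magel2*, *Mkrn3* and *Peg12* in every library, in TMM-scaled CPM on a log axis, by group; bars are group means of the filled points, and open diamonds are the libraries 1_3_IC and 1_7_IC at their labelled group. The 3 filled PWS-IC points of *Magel2* lie between 1.51 and 1.73 CPM, below all wild-type points, whereas PWS-cr and wild-type points overlap for each gene.

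A small share of each gene's RNA was left in PWS-IC pups. *Magel2* stood at 4.42%, 3.99% and 4.22% of its wild-type littermates in 1_10_IC, 4_4_IC and 4_5_IC. *Mkrn3* stood at 4.50%, 4.16% and 4.36%, and *Peg12* at 4.51%, 7.95% and 6.63%. Pooled over libraries, the share left was 4.35% for *Magel2* (95% exact interval 3.84% to 4.91%, 274 counts), 4.28% for *Mkrn3* (3.604% to 5.04%, 147 counts) and 6.23% for *Peg12* (4.28% to 8.79%, 34 counts). These intervals cover counting error only. The same measure gave 3.04% for *Ndn* (2.92% to 3.16%), 2.53% for *Snrpn* (2.38% to 2.68%) and 11.8% for *Snhg14* (11.4% to 12.2%). By pooled counts *Magel2*, *Mkrn3* and *Peg12* thus lay above *Ndn* and *Snrpn* and below *Snhg14* by more than counting error, which leaves out differences between pups. Taken per library, the log2 ratio to *Ndn* differed by 0.53, 0.52 and 1.12, PWS-IC minus wild type. None of these passed (exact permutation over libraries, p = 0.0571 for each, the smallest possible, adjusted p = 0.114).

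**Figure D2:**
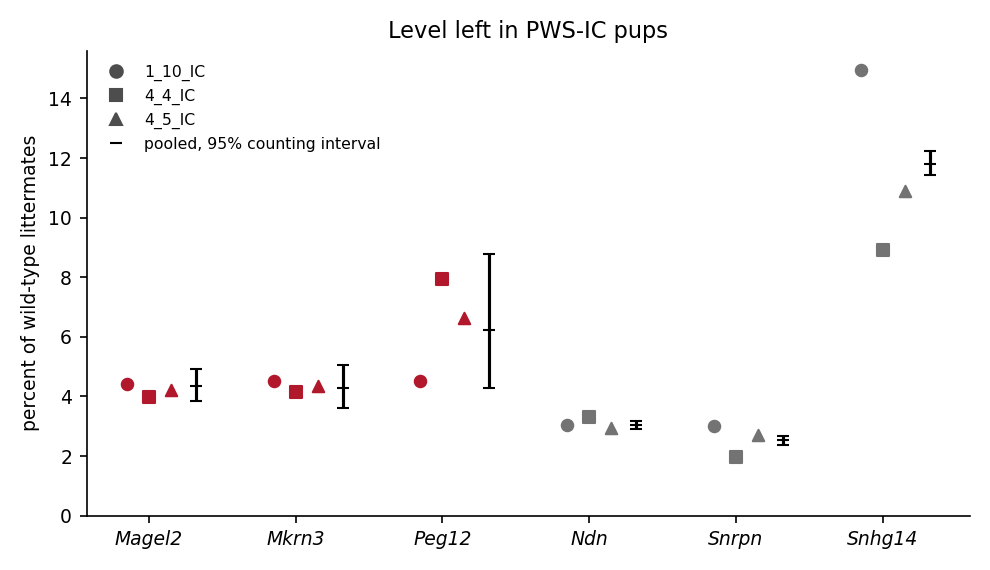
Level of *Magel2*, *Mkrn3*, *Peg12* and the neighbours *Ndn*, *Snrpn* and *Snhg14* in each PWS-IC pup as a percent of the mean of its wild-type littermates; black bars are the pooled share with its 95% counting interval. The 3 pups lie between 3.99% and 4.42% for *Magel2*, and *Peg12* spreads from 4.51% to 7.95%.

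The fall of the 3 genes was placed among the other genes of the locus. Of 36 genes called lower in PWS-IC pups, 29 lay on chromosome 7 in 1 block from 59202391 to 62464510 (mm10), of which *Peg12* was the most distal, and 0 genes of that block were called higher. Log2 fold changes in the block ran from −7.32 to −3.04 with a median of −4.87, and *Magel2*, *Mkrn3* and *Peg12* ranked 17, 19 and 21 of 29 from the lowest. On the log2 scale the fold change was −5.01 (SE 0.0785) for *Ndn*, nearest to them, −5.27 (SE 0.121) for *Snrpn* and −3.10 (SE 0.122) for *Snhg14*.

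**Figure D3:**
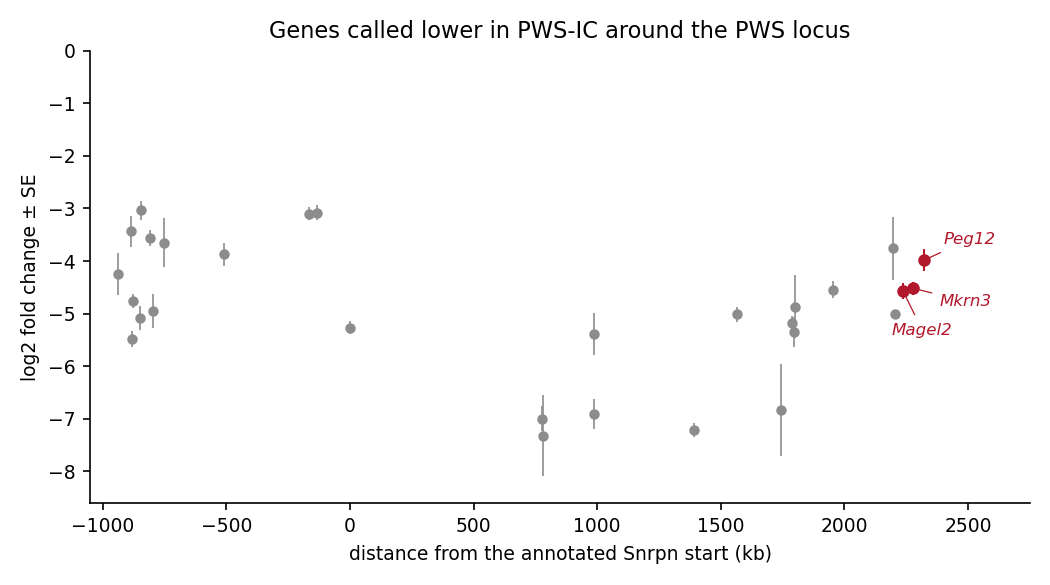
Log2 fold change with its SE in PWS-IC pups for the 29 genes of the chromosome 7 block called lower, against distance from the annotated *Snrpn* start in kb, with *Magel2*, *Mkrn3* and *Peg12* in red. The 3 genes form the distal end of the block, between −4.57 and −3.98.

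In PWS-cr pups none of the 3 genes passed the test. The intervals for *Mkrn3* and *Peg12* stayed within 0.21 of 0 on the log2 scale, and *Magel2* had a lower mean with a wider interval. The groups overlapped for all 3 genes, where 0.158% of genes did not overlap in either direction. None of the 3 was called, against 0.0135% of the 22172 genes tested in PWS-cr pups by edgeR and 0.0316% by DESeq2. At an unadjusted p under 0.05 stood 0 of the 3 genes in edgeR and *Magel2* alone in DESeq2 (adjusted p = 1).

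*Magel2* had 34.3 to 50.03 CPM in the 6 PWS-cr libraries (median 43.0), against 44.4, 43.2, 60.4, 50.2 and 66.4 CPM in the wild-type libraries 1_3_Cr, 3_1_Cr, 3_6_Cr, 4_1_Cr and 4_2_Cr. The highest values were those of the controls 4_2_Cr and 3_6_Cr and the lowest that of the mutant 3_5_Cr. The log2 fold change was −0.26 (SE 0.133, 95% interval −0.55 to 0.03; edgeR, adjusted p = 1). Within litters the difference was −0.01 in litter 1, −0.57 in litter 3 and −0.21 in litter 4, and leaving out each library in turn moved the fold change between −0.40 and −0.10.

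*Mkrn3* had 16.1 to 19.0 CPM in PWS-cr libraries (median 17.3), against 16.4, 16.8, 18.4, 18.3 and 20.4 CPM in 1_3_Cr, 3_1_Cr, 3_6_Cr, 4_1_Cr and 4_2_Cr. The 2 ranges overlapped over most of their length. Its log2 fold change had a 95% interval of −0.15 to 0.14 (edgeR, adjusted p = 1). *Peg12* had 2.81 to 3.73 CPM in PWS-cr libraries (median 3.46), against 3.43, 3.40, 3.56, 3.32 and 3.63 CPM in the same controls. The mutant 2_2_Cr stood below all other libraries of the series, and the remaining 5 mutants lay among or just above the controls. The log2 fold change of *Peg12* was 0.02 (SE 0.0861, 95% interval −0.17 to 0.21; edgeR, adjusted p = 1). Beside them *Ndn* stood at 0.75 (SE 0.0948), which missed the threshold in edgeR (adjusted p = 0.0621) and passed it in DESeq2 (adjusted p = 2.13e-12), in edgeR with no filter (7.21e-08) and in edgeR without 4_2_Cr (0.036), with a highest adjusted p of 0.298 over the alternatives. The log2 fold change was 0.12 for *Snrpn* and −1.67 for *Snhg14* (SE 0.0650, adjusted p = 2.36e-06; edgeR).

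Markers of brain regions varied among these libraries, and the ranges of their summed CPM overlapped between the groups. Summed CPM of 17 hypothalamic markers, among them *Pomc*, *Agrp* and *Oxt*, had a median of 70.3 in PWS-cr libraries (63.9 to 79.8) and of 75.9 in wild-type libraries (67.4 to 83.9), with 0 of 17 markers at 0 in either group. The controls had 70.0 (1_3_Cr), 67.4 (3_1_Cr), 75.9 (3_6_Cr), 83.2 (4_1_Cr) and 83.9 CPM (4_2_Cr). In the same order these controls had 44.4, 43.2, 60.4, 50.2 and 66.4 CPM of *Magel2*. Of the 17 markers 11 had a negative log2 fold change, the median was −0.19 and 0 were called (edgeR). An unadjusted p under 0.05 was reached by 2 in edgeR and 3 in DESeq2. The 2 in edgeR were both negative, *Nkx2-1* at −0.47 and *Pmch* at −0.76. Summed CPM of 8 *Hox* genes of caudal hindbrain and spinal cord ranged from 0.371 to 51.4 in PWS-cr libraries and from 0.611 to 18.3 in wild-type libraries. In the litter model 7 of the 8 had a positive log2 fold change, with a median of 2.42 (edgeR). At an unadjusted p under 0.05 stood 5 in edgeR, of which *Hoxc8* was negative, and 3 in DESeq2. Of the 8, 0 were called in edgeR or DESeq2, and *Hoxb7* and *Hoxb8* were called in edgeR with no filter (adjusted p = 0.00204 and 0.0181). Over all genes 2.07% had an unadjusted p under 0.05 in PWS-cr pups by edgeR and 0.816% by DESeq2. The part of either in the *Magel2* values was not tested.

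**Figure D4:**
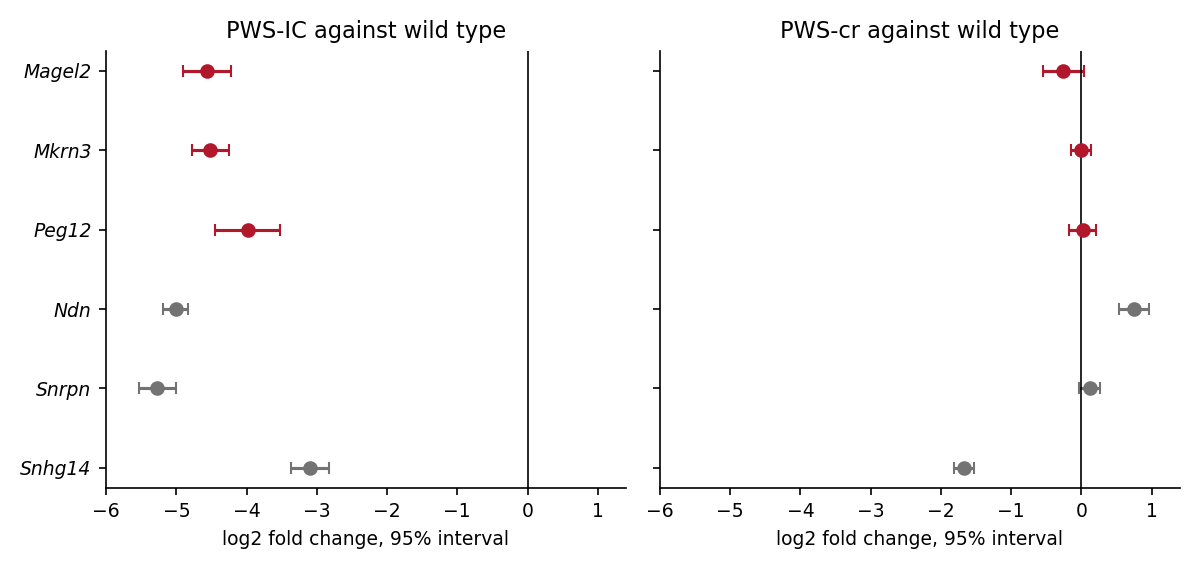
Log2 fold change with its 95% interval from edgeR for *Magel2*, *Mkrn3* and *Peg12* (red) and for *Ndn*, *Snrpn* and *Snhg14* (grey), PWS-IC against wild type on the left and PWS-cr against wild type on the right. *Magel2* is at −4.57 in PWS-IC and −0.26 in PWS-cr, where its interval reaches 0.03.

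The genotype effects of the models were compared directly in 1 fit over 18 libraries. The PWS-IC effect minus the PWS-cr effect was −4.31 (SE 0.232, adjusted p = 6.77e-09) for *Magel2*, −4.51 (SE 0.125, adjusted p = 7.27e-13) for *Mkrn3* and −4.00 (SE 0.194, adjusted p = 1.53e-09) for *Peg12* in edgeR. All 3 were called lower, against 0.14% of the 23574 genes tested. With all 9 PWS-IC series libraries as labelled the differences were −2.03, −1.44 and −1.37, none was called (lowest adjusted p = 0.836), and 0 of 23771 genes were (1124 had an unadjusted p under 0.05).

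Counts of 1 gene over those of another in the same library do not depend on library scaling. In PWS-cr pups *Magel2* gave 2.13 to 2.63 counts per *Mkrn3* count, against 2.58 to 3.28 in wild-type pups. The ratio was lowest in 3_5_Cr and highest in the control 3_6_Cr, and the mutants 1_2_Cr (2.61) and 4_3_Cr (2.63) overlapped the lowest control 3_1_Cr (2.58). The mean log2 ratio differed by −0.25, PWS-cr minus wild type (two-sided exact permutation test over all 11 libraries without regard to litter, p = 0.0130, adjusted p = 0.0195 over 6 ratios, 3 between the genes and 3 to *Ndn*; the smallest p possible is 0.00433). With labels exchanged within litters only, over the 10 libraries of litters with both genotypes, the difference was −0.25 and did not pass (exact permutation over 36 arrangements, p = 0.0833, adjusted p = 0.125; the smallest p possible is 0.0278). The mean log2 ratio was lower in PWS-cr pups in 3 of 3 litters with both genotypes, with differences of −0.12, −0.45 and −0.18. *Magel2* over *Peg12* differed by −0.26 (exact permutation p = 0.0779) and *Mkrn3* over *Peg12* by −0.01 (p = 0.870). Over *Ndn* the log2 ratio differed by −0.98 for *Magel2*, −0.73 for *Mkrn3* and −0.72 for *Peg12*, and the PWS-cr libraries lay wholly below the wild-type ones (exact permutation p = 0.00433 and adjusted p = 0.00866 for each, the smallest they can give). Within litters these were −1.002, −0.76 and −0.74, each at the smallest p possible of 0.0278 (exact permutation, adjusted p = 0.0556). All 6 ratios use the same libraries as the fold changes, and those to *Ndn* share its values.

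In PWS-IC pups *Magel2* gave 1.58, 2.00 and 2.02 counts per *Mkrn3* count, against 1.19, 2.12, 2.19 and 1.98 in wild-type pups. The wild-type 1_1_IC and the PWS-IC pup 1_10_IC, both of litter 1, were the lowest of the 7. The log2 difference was 0.02 for *Magel2* over *Mkrn3*, −0.59 for *Magel2* over *Peg12* and −0.60 for *Mkrn3* over *Peg12*. With 3 against 4 libraries the exact permutation test cannot go below p = 0.0571, so it could not pass for any of them. The summed caudal *Hox* genes were at 45.7 CPM in 1_1_IC and 50.6 CPM in 1_10_IC, against 1.48 to 38.7 CPM in the other 5 libraries. The 38.7 CPM was that of 4_3_IC, whose ratio of 2.19 was the highest of the 7. In the PWS-cr libraries 3_5_Cr, 1_5_Cr and 4_3_Cr the *Hox* sum was 51.4, 43.0 and 42.0 CPM, at ratios of 2.13, 2.51 and 2.63. The part of the *Hox* genes in the ratio was not tested.

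**Figure D5:**
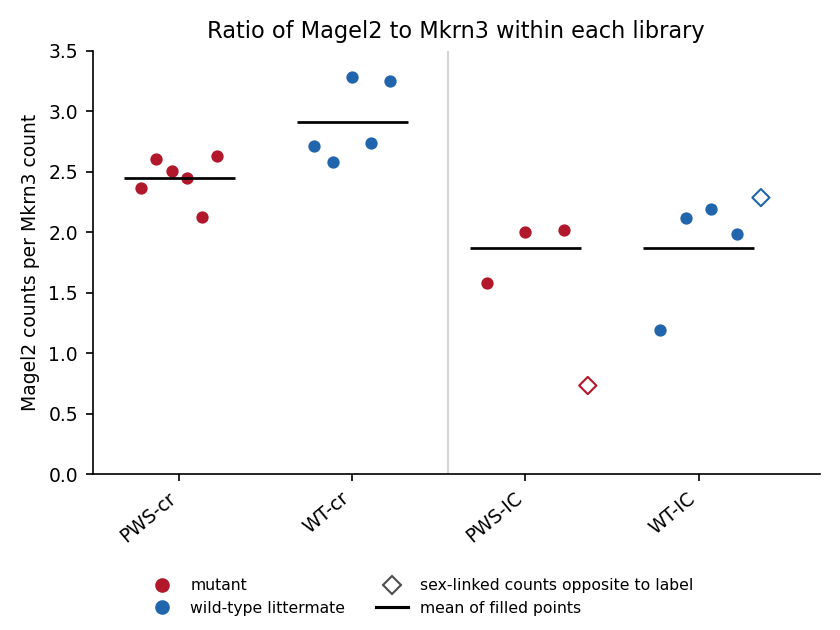
*Magel2* counts per *Mkrn3* count in each library, by group, with the mean of the filled points as a bar and 1_3_IC and 1_7_IC as open diamonds. PWS-cr points lie between 2.13 and 2.63 and their wild-type points between 2.58 and 3.28, while PWS-IC points lie between 1.58 and 2.02, within the wild-type range of 1.19 to 2.19.

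Wild-type levels were compared between the colonies, since each model was read against its own littermates. *Magel2* was lower in wild-type pups of the PWS-IC series, with a log2 difference of −0.49 (SE 0.147; edgeR, adjusted p = 0.0300), at 37.6 ± 6.80 CPM (n = 4) and 52.9 ± 10.1 CPM in those of the PWS-cr series (n = 5). *Mkrn3* differed by 0.18 (adjusted p = 0.141) and *Peg12* by −0.10 (adjusted p = 0.540), neither of them called, and *Ndn* was higher by 0.87 (SE 0.120, adjusted p = 0.000256; edgeR). Between the series 21.1% of the 22260 genes tested were called, so that 1 of 3 genes is near the background. The call for *Magel2* was lost without 3_6_Cr, 4_2_Cr, 1_1_IC, 1_5_IC or 4_6_IC (adjusted p between 0.0205 and 0.0768 over the 9 libraries left out in turn). Colony, litter and library batch cannot be told apart in this comparison.

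Over the 9 wild-type libraries, centred within series, no correlation between the genes passed the test. The pooled value for *Magel2* and *Mkrn3* joins series that went opposite ways: 4_2_Cr and 3_6_Cr were the highest wild-type libraries of their series for both genes, whereas 1_1_IC was the lowest for *Magel2* and the highest for *Mkrn3* of the 4 in its series that passed the sex check. Pearson's r was 0.09 for *Magel2* and *Mkrn3* (exact permutation p = 0.816, adjusted p = 0.981; Spearman's rho 0.23, p = 0.552), 0.45 for *Magel2* and *Peg12* (p = 0.228, adjusted p = 0.683; rho 0.48, p = 0.194) and −0.01 for *Mkrn3* and *Peg12* (p = 0.981, adjusted p = 0.981; rho −0.15, p = 0.708), with 3 pairs tested. Without the 2 libraries farthest from the median of the first gene, r was 0.67, 0.39 and −0.13. For the 3 pairs in the same order, r was 0.93, 0.81 and 0.63 within the PWS-cr series and −0.99, 0.30 and −0.39 within the PWS-IC series. Each series holds few wild-type libraries, and whether the genes vary together within a series was not tested.

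The genes most like each member were sought among the 23574 genes tested in both models, by the root mean square difference of log2 CPM over 18 libraries, each taken against the wild-type mean of its series. *Mkrn3* was the nearest to *Magel2* and *Magel2* the nearest to *Mkrn3* (0.248). *Magel2* was followed by *A330076H08Rik*, *A230057D06Rik*, *Gm9801* and *Gm38451* (0.325 to 0.352), and *Mkrn3* by *A330076H08Rik*, *Gm9801*, *Gm44560* and *A230057D06Rik* (0.284 to 0.315). *Peg12* was nearest to the snoRNA *Gm24966* (0.293), then *Gm44742*, *Gm38451*, *Gm38393* and *A230103L15Rik* (0.362 to 0.394). All of these lie on chromosome 7 in the block called lower in PWS-IC pups. The measure takes in the PWS-IC libraries, where the members fell, so only genes with a like fall there could rank near. The ranking therefore adds no evidence to the PWS-IC result.

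No listed gene that works with the 3 proteins was called in either model. Over all genes edgeR called 0.266% in PWS-IC and 0.0135% in PWS-cr pups, and DESeq2 1.03% and 0.0316%. At these shares 0 called is near the background for lists of this size. Over all genes an unadjusted p under 0.05 was reached by 12.7% in PWS-IC pups in edgeR and 10.2% in DESeq2, and by 2.07% in PWS-cr pups in edgeR and 0.816% in DESeq2, and the counts at that level in the lists stand against these shares. Of 11 partners of *Magel2* in ubiquitin ligation, retromer and WASH, 0 were called in PWS-IC pups and 0 in PWS-cr pups, by edgeR and by DESeq2, which called 1.03% of all genes in PWS-IC pups. In PWS-IC pups their median log2 fold change was 0.014, beside 0.0017 over all genes, and 1 had an unadjusted p under 0.05 in each tool: *Usp7*, the deubiquitinase, was at 0.17 (SE 0.0594; edgeR, adjusted p = 0.308). *Trim27*, the ligase, was at −0.04 and *Vps35*, the core of retromer, at −0.03. In PWS-cr pups the median was 0.014, beside 0.0034 over all genes, and 0 had an unadjusted p under 0.05 in either tool.

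Of 9 listed makorins and puberty genes 8 were tested, and 0 were called in PWS-IC or PWS-cr pups by either tool. This is near the background, since at most 1.03% of all genes were called. In PWS-IC pups the relative *Mkrn1* had the smallest p (0.13, SE 0.0531; edgeR, adjusted p = 0.358), and 1 gene in edgeR and 0 in DESeq2 had an unadjusted p under 0.05. In PWS-cr pups that gene was *Nptx1*, a neuronal pentraxin known as a substrate of Mkrn3 in mice, at 0.18 (SE 0.0692; edgeR, adjusted p = 1), and 1 gene in each tool had an unadjusted p under 0.05. Medians were 0.031 in PWS-IC and 0.0066 in PWS-cr pups. *Gnrh1*, the hormone that drives puberty, had 95% intervals of −0.15 to 0.80 in PWS-IC and −0.73 to 0.15 in PWS-cr pups.

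Of 18 genes of the FRAT, GSK-3 and Wnt list 0 were called in either model by either tool, near the background of at most 1.03% of all genes. At an unadjusted p under 0.05 stood 3 in PWS-IC and 0 in PWS-cr pups in each tool. *Frat2*, a relative of *Peg12* that also binds GSK-3, was at 0.41 in PWS-IC pups (SE 0.117; edgeR, adjusted p = 0.244), and *Frat1* at 0.17 (SE 0.1004). In PWS-cr pups *Frat2* was at 0.03 and *Frat1* at 0.02. *Axin2*, a common target of Wnt signalling, was at −0.12 (SE 0.0895) in PWS-IC and 0.00 (SE 0.0586) in PWS-cr pups. Medians were 0.019 in PWS-IC and −0.0017 in PWS-cr pups.

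Relatives of the members were read for scale, since reads that fit more than 1 copy were aligned in random order, per the study's methods. *Mkrn1* averaged 178.5 ± 2.64 TPM in PWS-IC and 167.0 ± 4.21 TPM in wild-type pups, and *Mkrn2* 20.2 ± 1.06 and 20.3 ± 0.536 TPM in the same groups. *Frat1* averaged 28.5 ± 2.73 TPM in PWS-IC and 26.1 ± 2.12 TPM in wild-type pups, and *Frat2* 27.7 ± 4.43 and 21.6 ± 1.21 TPM in the same groups. None of them was called lower or higher in PWS-IC pups.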

How the data were processed

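Polyadenylated RNA of whole newborn mouse brain was sequenced as paired, unstranded libraries. The authors mapped reads to mm10 with STAR and deposited raw counts per gene from featureCounts, tool versions not given in the sources used here, after removing 1 library per series by clustering. Further columns hold deposited signal values, which the authors made by dividing counts by a size factor, and the authors' FPKM and TPM, in which gene length is taken into account as well. The authors' DESeq2 comparison was deposited as log2 fold changes with standard errors, a score (the test statistic) and p-values, and none of these was used. Raw counts were used throughout, and TPM only to compare levels between genes; 20 FPKM and 20 size-factor columns were left aside.

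The quasi-likelihood test of edgeR 4.0.16 in R 4.3.3 (TMM, glmQLFit, glmQLFTest, no robust option) was run per series with litter and genotype. A gene was tested where 4 or more libraries (PWS-IC: 3) held 10 or more counts, with Benjamini-Hochberg adjustment over all genes tested. Litter is the first number of a library's name. The standard error is the log2 fold change over the square root of F. Both series were joined in 1 fit for the difference of effects. Ratios used a pseudocount of 1 and exact permutation tests in scipy 1.17.1, and the measure of likeness a pseudocount of 0.1 CPM. Total counts of 45798407 to 62103143 per library leave *Peg12* in PWS-IC pups at 8 to 13 counts. Alternatives were DESeq2 1.42.0, RLE scaling, other filters, no litter term, sex added, the robust option, all 9 PWS-IC series libraries as labelled, another pseudocount, ratio labels exchanged within litters (added after seeing the data) and the removal of each library. The fits were tested on simulated data. No 2 libraries of a group agreed within sampling noise (chi-square per degree of freedom at least 6.05). Whether replicate pups differ by more than technical spread rests on the labels, which name separate pups.

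The members, gene lists and marker lists were chosen with earlier results of these data known. So was the rule that left libraries of the PWS-IC series out by their sex-linked counts. Named genes are the 3 members, *Ndn*, *Snrpn* and *Snhg14*, genes of the lists that passed the filter, and the 5 genes most like each member; *Gm32061* and *Xist* were named after their values were seen.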

Additional observations from a re-analysis of the deposited data

Results flagged for a closer look

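The 3 genes were each tested by Dixon's test in 5 sets of 4 to 6 libraries, which share libraries, and 1 library stood far from the rest in 7 of these 15 tests. Chance gives about 1 in 20 for a single test, the tests are not independent, and 5 of the 7 come from the libraries 1_3_IC and 1_7_IC. Among the libraries labelled PWS-IC, 1_3_IC had 24.2 CPM of *Magel2*, 33.05 CPM of *Mkrn3* and 4.37 CPM of *Peg12*, against at most 1.73, 0.957 and 0.247 CPM in the other 3. As a share of its wild-type littermates 1_3_IC stood at 70.7% for *Magel2*, 155.6% for *Mkrn3* and 128.8% for *Peg12*, and it gave 0.732 *Magel2* counts per *Mkrn3* count, the lowest of the 20 libraries. Among the libraries labelled wild type of that series, 1_7_IC had 0.460 CPM of *Mkrn3* and 0.0986 CPM of *Peg12*, below every PWS-IC library, and 1.05 CPM of *Magel2*. Its share of wild-type littermates was 3.07% for *Magel2*, 2.17% for *Mkrn3* and 2.91% for *Peg12*. These are the 2 libraries whose sex-linked counts go against their labels.

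In the 4 wild-type libraries that passed the sex check, 1_1_IC stood apart with 23.2 CPM of *Mkrn3*, above 19.3 to 19.9 CPM in the others. In PWS-cr pups 2_2_Cr stood apart with 2.81 CPM of *Peg12*, below 3.39 to 3.73 CPM in the others. It is the only library of its litter with a count column (the wild-type littermate 2_1_Cr was not analysed here), so it does not enter the genotype difference of the litter model.

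The genotype effect differed between the models by test for each gene: the PWS-IC effect minus the PWS-cr effect was −4.31 for *Magel2*, −4.51 for *Mkrn3* and −4.00 for *Peg12* on the log2 scale.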

How the results depend on the processing

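All 3 genes stayed called lower in PWS-IC pups under RLE scaling, DESeq2, no filter, no litter term, sex added, the robust option and the removal of any 1 of the 7 libraries (*Magel2* −4.65 to −4.47, *Mkrn3* −4.56 to −4.48, *Peg12* −4.14 to −3.77); with 10 counts required in every library *Peg12* was not tested. With all 9 libraries as labelled the values were −2.32, −1.49 and −1.39, the model differences −2.03, −1.44 and −1.37, and 0 genes were called in either comparison. Genes called in PWS-IC pups numbered 60, against 231 in DESeq2, 978 with no filter, 31 with 10 counts in every library, 180 with sex added and 40 to 93 without 1 library (93 without 1_5_IC); for the difference of models 35 to 52. In PWS-cr pups the 3 genes called became 7 in DESeq2, 10 with no filter and 2 to 4 without 1 library. There *Mkrn3* moved around 0 (0.0008 with no filter, −0.076 to 0.052 without 1 library) and *Peg12* likewise (−0.030 with no litter term, −0.0055 to 0.037 without 1 library), and no member was called under any of these. *Magel2* over *Mkrn3* in PWS-cr pups stayed under the threshold without any 1 library (−0.29 to −0.20, adjusted p 0.0143 to 0.0429, exact permutation). It did not with labels exchanged within litters (exact permutation, adjusted p = 0.125), a test chosen after seeing the data. There the 3 ratios to *Ndn* each reached the smallest p possible (exact permutation, p = 0.0278, adjusted p = 0.0556). As the other 3 ratios did not, the adjusted p could go no lower, so their loss of the call was set by the few arrangements. Ratios that changed sign were *Mkrn3* over *Peg12* in PWS-cr pups (−0.047 to 0.018), *Magel2* over *Mkrn3* in PWS-IC pups (−0.19 to 0.13; −0.38 as labelled, −0.047 within litters) and *Magel2* over *Ndn* in PWS-IC pups (−0.051 as labelled, against 0.53). *Magel2* between wild-type colonies ranged from −0.56 to −0.37, and 3419 to 5022 genes were called. The causes were not tested. No paired analysis was possible because replicate numbers match no pups across genotypes; the pups share litters instead, and litter is a term of the edgeR fits but not of the permutation tests over all libraries. *Peg12* in PWS-IC pups is limited by its 8 to 13 counts per library.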
